A study of Mus musculus with 2 samples.

Results

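The replication-dependent histone genes of the mouse were examined in total RNA sequencing of neutrophils, the short-lived granule-bearing white cells that kill microbes. The genes were those whose symbol starts with Hist1h, Hist2h, Hist3h or Hist4h and that have a transcript of type protein_coding in the second deposited transcript table. There were 67 such genes among 55536 annotated genes, with 6 genes of class H1, 18 of H2A, 18 of H2B, 12 of H3 and 13 of H4. The rule uses names and transcript types, not expression values. The series holds 2 libraries of 1 group, biological replicates 1 and 2, of neutrophils that the labels give as taken from the spleen of male B6CASTF1/J mice. The mice were 59 days old, came from a cross of C57BL/6 females with CAST/EiJ males, and have no treatment named. A directional kit was used on 300 ng of RNA per library, with ribosomal RNA reduced and ERCC spike-ins added. Both libraries carry the same donor label and separate biosample labels, so the spread between them may be technical, and there is no second condition to compare with.

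Histones package DNA. Pairs of H2A, H2B, H3 and H4 form the protein core of the nucleosome, and H1, the linker histone, binds where DNA enters and leaves it. Replication-dependent genes supply histones for newly copied DNA, so their mRNA rises in S phase and is degraded when replication ends. Their mRNAs are the known exception to polyadenylation: they end in a stem-loop that is bound by the protein Slbp and cleaved with the help of U7 RNA. A library that is not selected by poly(A) tails can therefore hold them. Mature neutrophils do not divide, while their precursors in bone marrow do.

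The stem-loop was searched for in the annotated transcripts as a perfect stem of 6 base pairs around a loop of 4 bases, starting with GG and ending with CC, after the stop codon. Where a gene has several protein-coding transcripts, the one with the highest mean TPM was used. The stem-loop was found in 46 of the 67 genes, at a median of 31 bases after the stop codon, in 8 sequence types. The gene of each type with the highest mean TPM in the deposited gene table is shown because the stem-loop is what sets these mRNAs apart from others. Capitals mark the stem-loop, with 6 bases on either side in lower case, and the coordinates (mm10, GENCODE M21 transcripts) are those of the stem-loop.
Hist2h2aa2 (chr3:96239784-96239799, minus strand): taaaaaGGCTCTTTTCAGAGCCacccac
Hist1h4f (chr13:23551291-23551306, minus strand): ctcaaaGGCCCTTTTCAGGGCCacccac
Hist1h2bk (chr13:22036300-22036315, plus strand): accaaaGGCTCTTTTAAGAGCCactaaa
Hist1h4i (chr13:22040966-22040981, minus strand): cttaaaGGCCCTTTTTAGGGCCaccaca
Hist1h4b (chr13:23757366-23757381, plus strand): acaaaaGGTCCTTTTCAGGACCactcac
Hist1h4a (chr13:23760800-23760815, minus strand): accaaaGGCCCTTCTCAGGGCCgcccac
Hist1h3g (chr13:23535889-23535904, plus strand): tttaaaGGCTCTTCTTAGAGCCacccat
Hist2h2ac (chr3:96220418-96220433, minus strand): caaaaaGGCTCTTTTTAGAGCCaccaaa

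The type shown for Hist2h2aa2 was the commonest and was found in 26 genes of H1, H2A, H2B and H3. The type of Hist1h4f was found in 7 genes, all of H4, and that of Hist1h2bk in 6 genes of H1, H2B and H3. The types of Hist1h4i and Hist1h4b were found in 2 H4 genes each, and the other three in 1 gene each. All 12 H4 genes with a stem-loop thus held types found in no other class. In the remaining 21 genes no such stem-loop was found, and 13 of these have a deposited model that holds the coding region only. The annotated end therefore differs between genes: 23 of the 63 detected genes have a model that ends within 100 bases after the stem-loop, and 21 have a model that runs farther. Levels are given below as TPM (reads divided by effective length and scaled to a fixed total per library), so the length of the model enters them. The 11 detected genes with a coding-only model had medians of 562.6 and 647.9 TPM from 3178 and 3531 reads in replicates 1 and 2. The 21 whose model runs farther had medians of 113.0 and 143.7 TPM from 2588 and 3096 reads. The order of genes by TPM thus follows the models in part.

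The libraries held 18836093 and 18444369 estimated reads in replicates 1 and 2. The neutrophil markers were abundant, with S100a8, a subunit of calprotectin, at 20153 TPM in replicate 1 and 18436 TPM in replicate 2, and the surface antigen gene Ly6g at 315.6 and 268.8 TPM. All 5 primary granule genes, which promyelocytes make, were detected too, summing to 924.3 and 1195 TPM. Markers of other cell types were low but present. The 8 erythroid markers summed to 55.5 TPM in replicate 1 and 151 TPM in replicate 2. The 6 B cell markers summed to 199.1 and 143.7 TPM, most of it Ighm, the antibody heavy chain gene. The 4 progenitor markers summed to 37.0 and 48.2 TPM. None of the 8 erythroid or 6 B cell markers was at 0 in either library. The replication-dependent histones are expressed by dividing cells of every one of these types, and the part of each type in the histone levels was not tested.

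Replication-dependent histone mRNA was abundant in both libraries. Summed over the 67 genes it came to 23830 TPM in replicate 1 and 30110 TPM in replicate 2, which is 5.11% and 6.43% of the TPM of all protein-coding genes. As reads, which are not divided by length, it was 1.48% and 1.84% of the reads of protein-coding genes. Detection, set at 1 TPM or more in each library, was reached by 63 of 67 genes (94.0%), against 46.4% of all 22028 protein-coding genes. At 100 TPM or more in both libraries there were 47 histone genes, and 23 were among the 100 protein-coding genes with the highest mean TPM. The median histone gene had 254.5 and 287.3 TPM, against 12.9 and 13.1 TPM for protein-coding genes whose mean was 1 TPM or more. In bulk RNA, more cells of a type and more RNA per cell cannot be told apart.

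The 4 core classes had similar sums, and H1 had less. In replicate 1 the summed TPM was 5427 for H2A, 6250 for H2B, 4997 for H3 and 5482 for H4, and 1675 for H1. In replicate 2 it was 6944 for H2A, 7596 for H2B, 6445 for H3 and 7213 for H4, and 1912 for H1. Replicate 2 was the higher library in every class. The mean was 6185 ± 1073 TPM for H2A, 6923 ± 952 for H2B, 5721 ± 1024 for H3, 6347 ± 1224 for H4 and 1794 ± 168 for H1 (SD, n = 2). Within a library the core classes lay within 1.25-fold of each other in replicate 1, where H2B over H3 was the widest pair, and H2B over H3 was 1.18 in replicate 2. The order H2B, H4, H2A, H3 was the same in both libraries. No test of the differences between classes was made with n = 2. The second table gave the same order for H1 against the core but a higher H2A: 8394 and 10561 TPM, which was 1.28 and 1.32 times H2B and 1.49 and 1.504 times H3.

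**Figure D1:**
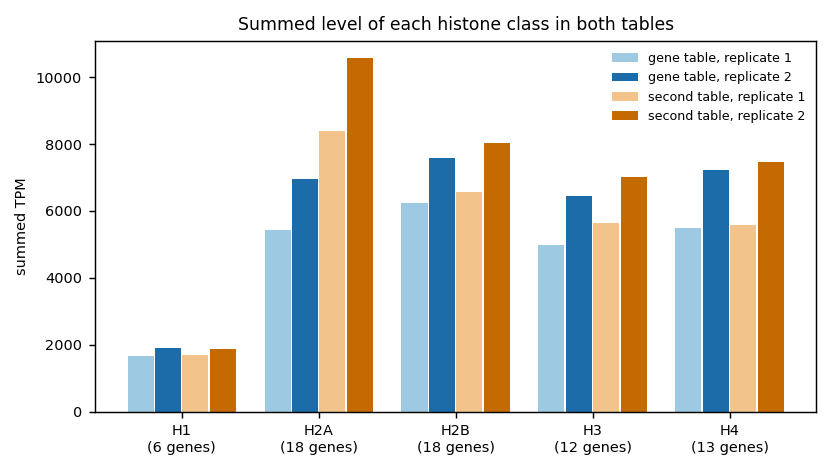
Summed TPM of the genes of each class (vertical axis, from 0) in replicates 1 and 2 by the gene table (blue) and by the second table (orange). The core classes lie between 4997 and 7596 TPM in the gene table, H1 reaches 1912 TPM, and H2A is the class whose bars differ most between the tables.

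Among the linker histones Hist1h1c led, with 754.0 TPM in replicate 1 and 812.3 TPM in replicate 2. It lies at chr13:23738808-23740367 on mm10, in a single exon. It also held the most reads of any of the 67 genes, 20840 and 21677. Hist1h1e followed with 353.1 and 403.6 TPM, Hist1h1b with 306.5 and 352.4 TPM and Hist1h1a with 206.3 and 279.0 TPM. Hist1h1d had 55.0 and 64.3 TPM on a model of 7425 bases, the longest here, although it held 7630 and 8614 reads. Per read it thus stood above Hist1h1a and Hist1h1b, and per length below both. Hist1h1t, the testis linker histone, had 0.39 and 0.27 TPM from 6 and 4 reads. The 5 somatic linker histone genes were present in both libraries and had the same order in both in the gene table. In the second table Hist1h1b (469.0 and 533.7 TPM) stood above Hist1h1e (313.8 and 343.0 TPM).

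Class H2A was led by Hist1h2ai in the second table, with 1559 and 1909 TPM. In the gene table it was led by Hist2h2aa2, at chr3:96239749-96240276, with 1472 TPM in replicate 1 and 1840 TPM in replicate 2. That was the highest mean of all 67 genes in the gene table. The gene-table values of the class follow. Hist1h2ao had 1073 and 1326 TPM and Hist1h2ab 711.2 and 884.9 TPM. Hist1h2af had 489.5 and 652.4 TPM and Hist1h2ag 460.3 and 603.9 TPM. These 5 genes were above 400 TPM in both libraries, and the next, Hist1h2ap, had 254.5 and 259.8 TPM. Hist1h2ak, Hist1h2ah, Hist2h2ac and Hist1h2ai lay between 145.8 and 265.6 TPM in the 2 libraries, and Hist1h2an, Hist1h2ae and Hist1h2ad between 55.0 and 115.0 TPM. The lowest detected genes were Hist3h2a (25.8 and 43.3 TPM), Hist1h2ac (23.3 and 28.5 TPM), Hist2h2ab (9.68 and 12.1 TPM) and Hist2h2aa1 (4.52 and 23.8 TPM). Many of these genes encode the same protein: the 18 genes encode 9 proteins, and 9 genes, Hist1h2ab and Hist1h2ao among them, encode an identical H2A that took 53.6% and 52.4% of the class TPM. The protein of the Hist2h2aa1 and Hist2h2aa2 pair differs from it by T16S, S40A, L51M and R99K (positions counted after the initiator methionine, the commoner protein's residue first) and took 27.2% and 26.8%.

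Class H2B was led by Hist1h2bb in the second table. In the gene table its leading genes were close together. Hist2h2bb, at chr3:96269752-96270132, had 837.4 TPM in replicate 1 and 1021 TPM in replicate 2, and Hist1h2bg had 836.4 and 990.8 TPM. The model of Hist2h2bb holds the coding region only. Hist1h2bk had 638.0 and 810.3 TPM. Hist1h2bf, Hist1h2bq, Hist1h2br, Hist1h2bj and Hist1h2bl followed between 470.0 and 671.7 TPM, with ranges that overlapped from each gene to the next. Hist1h2bb (396.9 and 477.8 TPM), Hist1h2bn (339.6 and 436.6 TPM), Hist1h2bp (246.5 and 287.3 TPM) and Hist1h2bm (137.0 and 169.4 TPM) came next. Hist1h2bh, Hist1h2be and Hist1h2bc lay between 49.4 and 78.9 TPM, all on models longer than 1000 bases. Hist3h2ba had 6.36 and 24.4 TPM. Hist2h2be, with a model of 2620 bases in which no stem-loop was found, had 1.57 and 1.56 TPM. The 18 genes encode 11 proteins, and the 6 genes Hist1h2bf, Hist1h2bj, Hist1h2bl, Hist1h2bn, Hist1h2bq and Hist1h2br share a protein that took 47.8% and 47.6% of the class TPM.

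Class H3 was led by Hist1h3b in the second table. In the gene table it was led by Hist2h3b, at chr3:96268654-96269141, with 1016 TPM in replicate 1 and 1402 TPM in replicate 2. Hist1h3h had 741.5 and 994.5 TPM, Hist1h3b 701.9 and 865.9 TPM and Hist1h3i 676.0 and 863.1 TPM, so that these 3 overlapped between libraries. The models of Hist1h3h and Hist1h3i hold the coding region only. Hist1h3a (471.4 and 575.7 TPM) and Hist1h3e (429.3 and 542.9 TPM) were intermediate. Hist1h3c, Hist2h3c2, Hist1h3f and Hist1h3g lay between 162.5 and 376.1 TPM, and Hist1h3d had 72.1 and 94.98 TPM. The 11 detected genes encode 2 proteins that differ by S96C. The 7 genes whose protein has serine there summed to 2945 and 3810 TPM, which was 58.9% and 59.1% of the class. The 4 genes with cysteine, Hist1h3a, Hist1h3g, Hist1h3h and Hist1h3i, summed to 2051 and 2634 TPM, or 41.0% and 40.9%. In the second table the cysteine protein took 30.8% and 30.4%. Beside the class, H3f3a and H3f3b, whose protein replaces H3 outside replication, summed to 2350 and 2398 TPM. The replication-dependent sum was 2.13 times that in replicate 1 and 2.69 times that in replicate 2, and 2.22 and 2.83 times in the second table.

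All 13 H4 genes encode the same protein through 12 different coding sequences, and all 13 were detected. Hist1h4k, at chr13:21750194-21750505, had 1082 and 1541 TPM in replicates 1 and 2. Its model of 312 bases holds the coding region only. Hist1h4f, at chr13:23551258-23551648, had 1140 and 1444 TPM. Which of these genes was higher in the gene table depended on the library, while Hist1h4h led the class in the second table. Hist1h4h (758.0 and 962.7 TPM), Hist1h4m (583.7 and 866.0 TPM) and Hist1h4n (418.3 and 470.9 TPM) followed. Hist1h4d had 336.6 and 431.7 TPM, Hist1h4b 271.9 and 348.2 TPM and Hist1h4a 254.8 and 347.9 TPM, and Hist1h4i, Hist1h4c, Hist2h4 and Hist1h4j lay between 74.99 and 276.7 TPM. Hist4h4, the gene of the chromosome 6 locus, had 31.0 and 44.1 TPM. By reads, which are not divided by length, the 13 genes ran from 956.9 for Hist1h4j to 6614 for Hist1h4d in replicate 1.

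**Figure D2:**
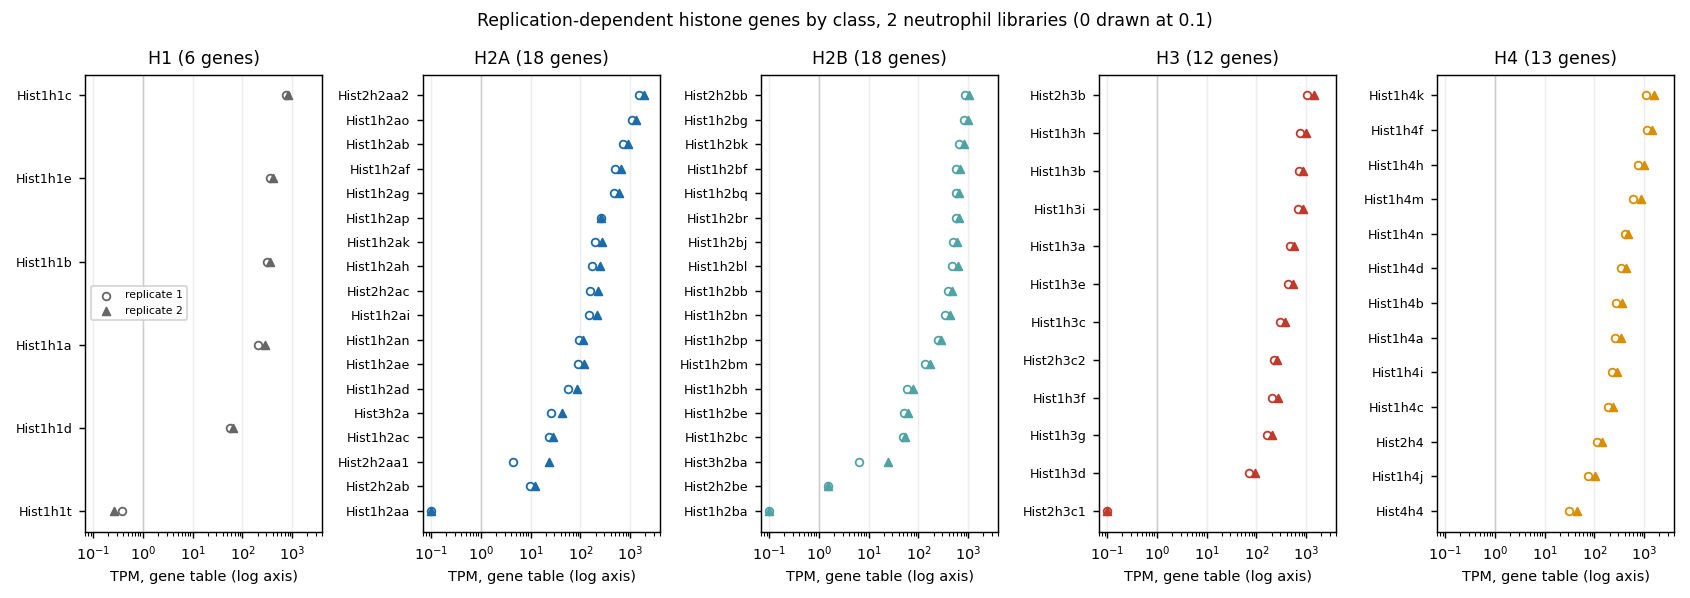
TPM of each of the 67 genes (horizontal log axis) in replicate 1 (open circles) and replicate 2 (filled triangles), in 1 panel per class. Values of 0 are drawn at 0.1 and the grey line marks 1 TPM; 63 genes lie above it in both libraries, and the triangle lies to the right of the circle for nearly all.

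The genes below 1 TPM were Hist1h1t, Hist1h2aa, Hist1h2ba and Hist2h3c1. Hist1h2aa and Hist1h2ba are the testis H2A and H2B, and they form a pair that shares 1 promoter region. Both had 0 reads in the gene table in both libraries. With 0 reads, a true level of up to 3 reads per library is allowed (counting error only). The second table gave Hist1h2ba 14.04 reads in replicate 1 and 0 in replicate 2, and Hist1h2aa 2.002 and 3.003 reads. Hist2h3c1 was listed at 0 in both tables, and none of its 100-base stretches is unique to it.

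The genes lie at 4 loci. The Hist1 locus on chromosome 13 (chr13:21715763-23934851, mm10) holds 54 genes and gave 19939 and 25066 TPM in replicates 1 and 2. It is split by a gap of over 200000 bases into a group of 23 genes (9946 and 12708 TPM) and a group of 31 genes (9993 and 12358 TPM), which contributed alike per length. All 23 genes of the first group were detected and 28 of 31 in the second. The second group, which includes 5 of the 6 H1 genes, held 125447 and 146526 reads against 63723 and 77791. The Hist2 locus on chromosome 3 (chr3:96219865-96270132) holds 10 genes and gave 3828 and 4932 TPM. The Hist3 locus on chromosome 11 holds Hist3h2a and Hist3h2ba, with 32.1 and 67.8 TPM together. Hist4h4 is alone on chromosome 6. Both large loci thus supplied every core class, H4 of Hist2 through the single gene Hist2h4 (113.0 and 143.7 TPM), while the small ones were below 100 TPM.

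Of the H2A and H2B genes, 12 pairs start head to head with 176 to 306 bases between their starts (median 259.5), so that both genes share 1 promoter region. In 11 of these pairs both genes were detected, and levels within a pair were rarely equal. In TPM, H2B exceeded H2A in both libraries in 8 pairs, and the median H2B over H2A was 2.21 in replicate 1 and 2.49 in replicate 2. Model length enters these ratios. By reads, Hist1h2ac (1052 and 1241) stood above Hist1h2bc (988.3 and 1047), one of these pairs, while H2B also had more reads in the rest of them. Hist1h2bg stood 9.25 and 8.62 times above Hist1h2ae, with 176 bases between them. The opposite extreme was Hist2h2ac, at 153.6 and 227.4 TPM, beside Hist2h2be, at 1.57 and 1.56 TPM, with 239 bases between their starts. In reads this gap was smaller, 1222 and 1746 against 75 and 72. Pair values differed between the tables: in the second table H2B was higher in 6 pairs and H2A in 5, and in replicate 1 only 6 of the 11 pairs had the same gene higher in both tables. For Hist2h2ac with Hist2h2be and for Hist1h2ae with Hist1h2bg both tables gave the same side, the latter at 13.4 and 11.6 in the second table.

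The promoter window of Hist2h2ac (RefSeq, GRCm38.p6, chr3:96220831-96221130, minus strand, 250 bases before to 50 after the start) is shown because it spans the region it shares with Hist2h2be. Capitals mark matches on either strand to the octamer ATTTGCAT, which is bound by Pou2f1 and related factors, to CCAAT and to TATAAA.
Hist2h2ac: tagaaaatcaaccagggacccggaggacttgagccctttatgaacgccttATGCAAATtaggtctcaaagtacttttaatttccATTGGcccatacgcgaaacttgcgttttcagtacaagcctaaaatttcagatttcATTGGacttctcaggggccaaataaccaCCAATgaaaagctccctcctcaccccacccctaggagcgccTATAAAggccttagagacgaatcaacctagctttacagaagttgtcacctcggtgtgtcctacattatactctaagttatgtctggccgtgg

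Promoter windows could be matched for 61 of the 67 genes. The octamer was present in 13 of them, 7 of 18 H2A and 6 of 16 H2B windows and none of the 5 windows of H1, 10 of H3 and 12 of H4, against 1.74% of 32851 RefSeq promoters. CCAAT was present in 85.2% of the histone windows against 37.4%, and in every H1, H2A, H2B and H3 window but in 3 of 12 H4 windows. TATAAA was present in 55.7% against 13.6%. These are matches of letters, not sites. Windows of head-to-head pairs overlap, so the same match can be counted for both genes, and the windows are not independent. The octamers of Hist1h2aa with Hist1h2ba, Hist1h2ae with Hist1h2bg and Hist1h2ah with Hist1h2bk were each counted in both windows. Octamer windows did not sort the genes by level: the median H2A gene with an octamer had 90.4 and 115.0 TPM and the median without had 193.3 and 259.8 TPM, while for H2B the medians were 517.5 and 644.0 TPM with and 404.8 and 517.9 TPM without.

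Nearly every histone gene was higher in replicate 2 by a similar small ratio. As a share of reads of annotated genes other than ribosomal RNA, the summed reads of replicate 2 over replicate 1 were 1.12 for H1 (95% exact interval 1.11 to 1.13), 1.27 for H2A (1.26 to 1.29), 1.20 for H2B (1.19 to 1.22), 1.27 for H3 (1.25 to 1.28) and 1.29 for H4 (1.27 to 1.31). These Clopper-Pearson intervals hold counting error only and not the spread between libraries. Reads shared between genes of a class stay inside these sums, but reads shared with other genes may not. Some H2A genes share 100-base stretches with H2afx and with pseudogenes, and Hist1h1e shares 21.7% of its stretches with Hist1h2be of class H2B. With the pseudogenes that carry histone symbols added, H2A was at 1.27. The second table gave 1.13, 1.27, 1.21, 1.28 and 1.30 in the same order of classes. H1 was the class with the smallest ratio in both tables.

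Gene by gene, 63 histone genes had at least 50 reads in all and were compared between the libraries with an exact binomial test, adjusted (Benjamini-Hochberg) over the 12437 genes tested. The log2 ratio was above 0 for 62 of 63, with a median of 0.32 and 55 values between 0.15 and 0.6, while the median of all genes tested was 0.00 and 49.9% of them were above 0. At an adjusted p of at most 0.05 with no threshold on the ratio, 59 of 63 (93.7%) were higher in replicate 2 and none was lower, against 11.6% of all genes tested that were higher. That test takes reads as the only error. With the spread between these 2 libraries included (negative binomial exact test in edgeR, dispersion common to all genes, adjusted over the same genes), 2 of 63 were higher in replicate 2, against 1.21% of all genes tested. For the other 61 genes the ratio was thus not shown to be larger than the general spread between the libraries. The 20 tested genes with at least 80% unique sequence had a median of 0.32 and 19 of them were above 0, and the other 43 had a median of 0.32 too. The libraries also differed in other cell types, as given below.

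**Figure D3:**
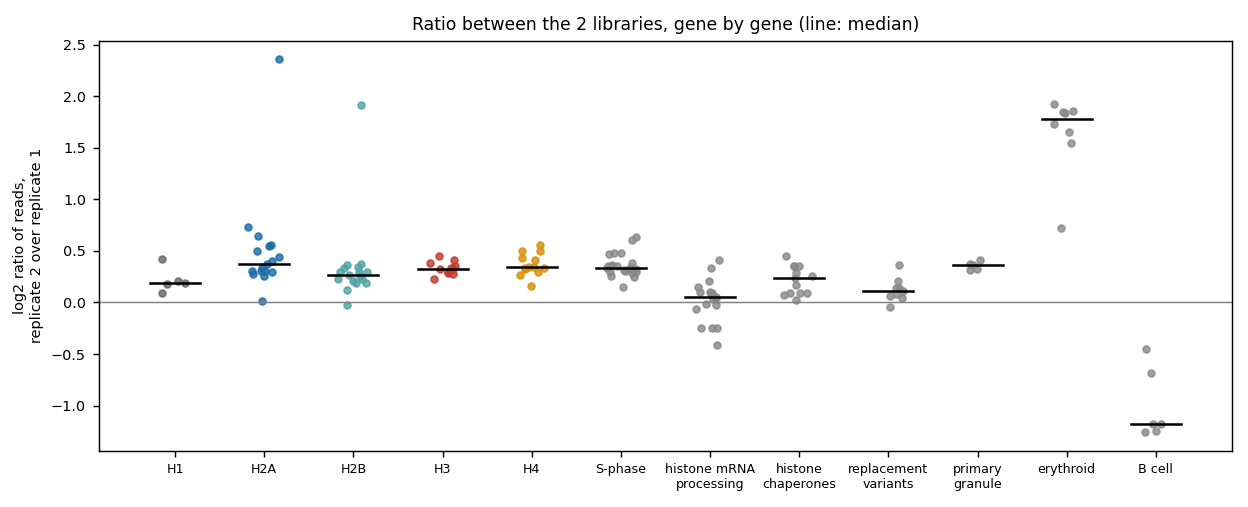
The log2 ratio of reads in replicate 2 over replicate 1 (vertical axis) for each tested gene of the 5 histone classes and of 7 gene lists, with the median of each as a line. The class medians lie between 0.19 and 0.38, beside 0.33 for the S-phase list, 1.78 for the erythroid and -1.18 for the B cell markers.

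With a ratio of 2-fold or more also required, 2 of 63 histone genes were called, both higher in replicate 2, against 1.57% of all genes tested that were called higher. Hist3h2ba (chr11:58948920-58949533), an H2B gene of the small chromosome 11 locus, had 61.9 reads in replicate 1 and 229.7 in replicate 2. Its log2 ratio was 1.92 (adjusted p = 5.11e-23, exact binomial test), 95.2% of its sequence is unique, and the second table gave 41.6 and 177.2 reads. Its neighbour Hist3h2a had the next largest ratio among genes outside the Hist2h2aa pair, with 998.1 and 1620 reads and a log2 ratio of 0.74. Hist2h2aa1 (chr3:96245497-96246082) had 41.6 and 211.7 reads and a log2 ratio of 2.36 (adjusted p = 1.53e-27, exact binomial test). It shares 88.1% of its 100-base stretches with Hist2h2aa2, and the deposited bounds of its TPM were 0.888 to 11.4 in replicate 1 and 14.1 to 34.6 in replicate 2. The second table gave it 5033 and 6581 reads and no call. Summed over both genes of the pair, the ratio was 1.25 (95% exact interval 1.22 to 1.28), close to that of the class.

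The smallest ratios were those of Hist2h2be (log2 -0.02, 75 and 72 reads), Hist1h2ap (0.02, which shares 92.2% of its sequence with Hist1h2ao) and Hist1h1c (0.09). Hist2h2be was the only histone gene tested that was not above 0. In the second table all 62 genes tested were above 0.

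Other genes of DNA replication had ratios of the same size. Of the S-phase list (MCM helicase, polymerase, nucleotide synthesis and cyclin E genes) 22 of 22 were above 0. At an adjusted p of at most 0.05 (exact binomial test) 21 passed, all higher in replicate 2, against 11.6% of all genes tested. The median log2 ratio of the S-phase list was 0.33, and none of its genes reached 2-fold. The highest were Pcna, the sliding clamp of the replication fork, at 105.1 and 133.1 TPM, Mcm7 at 62.4 and 79.2 TPM, and Mcm5 at 52.5 and 62.5 TPM. Of the histone chaperone list 13 of 13 were above 0, with a median of 0.24, and 7 passed, against the same 11.6%. Its highest were Nap1l1 (66.6 and 71.3 TPM), Rbbp4 (65.8 and 63.0 TPM) and Ssrp1 (50.5 and 57.9 TPM). For both lists the test took reads as the only error and left out the spread between the libraries. Both lists were also chosen with earlier results of these data known, so their counts are a description and not independent support. Nasp, which carries H3 and H4, had 26.2 and 33.1 TPM.

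The list of genes that transcribe, process and degrade histone mRNA had no common direction. Of its 18 tested genes 11 were above 0, with a median of 0.05, and 3 passed as higher and 3 as lower in replicate 2, where 11.6% of all genes tested were higher and 12.7% lower by the same rule. Slbp, the stem-loop binding protein, had 36.6 TPM in replicate 1 and 48.9 TPM in replicate 2 and a log2 ratio of 0.33 (adjusted p = 4.19e-07, exact binomial test). Tut7, a uridylyltransferase that marks histone mRNA for decay, was the highest of the list, at 191.5 and 156.0 TPM with a log2 ratio of -0.25 (adjusted p = 1.44e-29, exact binomial test). These p-values also take reads as the only error and leave out the spread between the libraries. Srrt had 104.1 and 111.4 TPM. Npat, the coactivator of histone genes, had 5.61 and 6.39 TPM, and Lsm10 and Lsm11, proteins of the U7 particle, had 17.99 and 13.2 TPM and 2.02 and 1.68 TPM. Rnu7, the U7 RNA, is shorter than the 100 bases below which the gene table gives a TPM of 0, so its level was not measured.

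The replication-independent variants differed less between the libraries. Of 9 tested, 8 were above 0, with a median log2 ratio of 0.11. By the same test, with reads as the only error, 4 passed, all higher in replicate 2, against 11.6% of all genes tested. H3f3b (1559 and 1648 TPM) and H3f3a (791.2 and 750.2 TPM) were the highest, with H2afz next (221.4 and 256.5 TPM). H2afx, an H2A variant whose mRNA can also end in a stem-loop, had the largest ratio of them, 0.36, at 124.0 and 161.1 TPM.

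Markers of cell types moved with the libraries as well. All 8 erythroid markers were higher in replicate 2 at log2 ratios from 0.72 to 1.93. Of these, 7 were called, against 1.57% of all genes tested that were called higher: Car1, Epb42, Gata1, Car2, Klf1, Slc4a1 and Epor. The other, Tfrc, had 15.3 and 21.6 TPM. All 6 B cell markers were lower there, from -1.26 to -0.45, and 4 were called, Cd79a, Pax5 and Ms4a1 among them, against 0.683% of all genes tested that were called lower. The 5 primary granule genes were all higher in replicate 2, from 0.32 to 0.41, with none at 2-fold: Mpo had 361.9 and 460.3 TPM, Elane 238.8 and 320.9 TPM and Prtn3 211.4 and 264.9 TPM. Among the neutrophil markers 2 of 6 were above 0, with a median of -0.13. At an adjusted p of at most 0.05 (exact binomial test, reads as the only error) 1 was higher and 4 were lower in replicate 2, with none at 2-fold. Of all genes tested, 11.6% were higher and 12.7% lower by that rule. Of the progenitor markers 3 of 4 were above 0, Myb (25.5 and 32.4 TPM), Kit (5.30 and 9.29 TPM) and Cd34 (3.89 and 4.32 TPM). The other, Flt3 (2.30 and 2.26 TPM), was at -0.03. In the second table Cd34 was at -0.11 and Flt3 at -0.09. The part of these cell types in the histone ratios was not tested.

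The gene table and the second table gave different levels for many histone genes from the same reads. The comparison was of log2 of the second table's summed TPM over the gene table's TPM, less the median of 10385 protein-coding genes in each library. Of 64 histone genes whose mean TPM reached 1 in either table, 26 (40.6%) were over 1.5-fold apart in the same direction in both libraries, against 7.01% of protein-coding genes. The second table was higher for 13 and lower for 13. The share was 9 of 17 in H2A, 4 of 18 in H2B, 4 of 11 in H3, 9 of 13 in H4 and 0 of 5 in H1. Of the 9 H4 genes 8 were lower in the second table, and of the 9 H2A genes 7 were higher. In shares of reads, with no division by length, 38 of 64 (59.4%) were over 1.5-fold apart, against 5.81% of protein-coding genes, 29 of them lower in the second table.

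Across the 64 genes, log2(TPM + 1) in the 2 tables had a Pearson r of 0.69 in replicate 1 and 0.74 in replicate 2, against 0.98 and 0.98 across 10474 protein-coding genes. Genes are not independent replicates, and both tables come from the same reads. Within a table the 2 libraries had r of 0.99 across 63 histone genes in the gene table and 0.98 across 64 in the second, so levels repeated between the libraries within each table. Of the 10 histone genes with the highest mean TPM, 4 were among the top 10 of both tables. The leading gene of each core class differed between the tables. Of the top 10 by TPM in the gene table, 5 were also in its top 10 by reads.

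The largest differences were in H2A and H4. Hist1h2ao had 1073 and 1326 TPM in the gene table and 5.76 and 4.44 TPM in the second, while Hist1h2ap, which shares nearly all of its sequence, had 254.5 and 259.8 TPM and 1212 and 1391 TPM. Summed, the pair had 1328 and 1586 TPM in the gene table and 1218 and 1395 TPM in the second. The same was seen for Hist2h2aa1 with Hist2h2aa2: Hist2h2aa1 had 4.52 and 23.8 TPM against 748.2 and 972.7 TPM, and the pair 1477 and 1864 TPM against 2097 and 2517 TPM. Hist1h4n had 418.3 and 470.9 TPM against 18.3 and 31.8 TPM, and with Hist1h4m 1002 and 1337 TPM against 914.0 and 1185 TPM. In TPM after centring, each of these 3 pairs was within 1.5-fold. In shares of reads, Hist1h2ao with Hist1h2ap stayed at a log2 of -0.86 and -0.88 and Hist1h4m with Hist1h4n at -1.08 and -1.12, while Hist2h2aa1 with Hist2h2aa2 was at -0.05 and -0.05.

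Hist1h4f had 1140 and 1444 TPM in the gene table and 166.1 and 208.6 TPM in the second, although 81.8% of its sequence is unique. Hist1h4h had 758.0 and 962.7 TPM against 2246 and 2800 TPM, and it is the gene with which Hist1h4f shares most sequence. Their sum was 1898 and 2407 TPM against 2412 and 3009 TPM. Hist1h4i (228.3 and 276.7 TPM against 96.8 and 96.1 TPM) and Hist1h2bk (638.0 and 810.3 TPM against 287.6 and 405.6 TPM) were the next largest among those lower in the second table. Higher in the second table were Hist1h2ai (145.8 and 216.8 TPM against 1559 and 1909 TPM), Hist1h2ad (55.0 and 87.0 TPM against 358.6 and 386.5 TPM) and Hist1h2ah (170.7 and 243.3 TPM against 652.8 and 1072 TPM). Hist1h2ad and Hist1h2ah share sequence with each other, and their sum still differed, 225.7 and 330.3 TPM against 1011 and 1458 TPM.

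**Figure D4:**
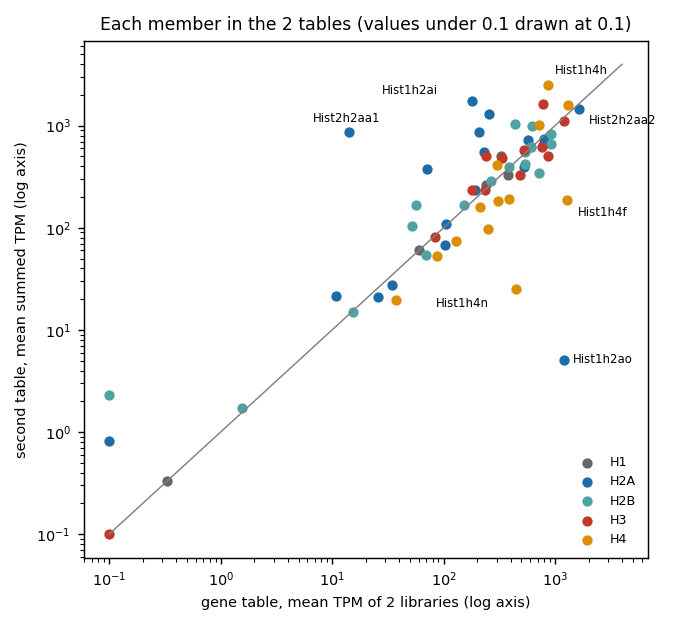
Mean TPM of 2 libraries in the gene table (horizontal log axis) and in the second table (vertical log axis) for each of the 67 genes, coloured by class, with the line of equality. Hist1h2ao, Hist1h4n and Hist1h4f lie far below the line and Hist2h2aa1 and Hist1h2ai far above it, while most H1 genes lie close to it.

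How much of a gene's sequence is its own differed widely. Each annotated transcript was cut into all its 100-base stretches, and a stretch was unique if no other annotated gene holds it. Only the GENCODE M21 reference transcripts were used. The mice have a CAST/EiJ parent, whose sequence was not compared, and its effect on gene levels in either table was not tested. Among genes whose mean TPM reached 1, the median was 99.2% unique in H1, 34.7% in H2A, 59.9% in H2B, 57.1% in H3 and 81.0% in H4. Hist2h2aa2 had no unique stretch. Annotated genes overlapped 21 of the 67 genes on the opposite strand, most of them predicted miRNA genes near 0 TPM; the highest was Gm44346, opposite Hist1h2an, at 28.3 and 33.1 TPM. Whether the counting used strand is not stated in the labels or headers. In the 12 genes under 20% unique, the median difference in share of reads between the tables was 2.60-fold, in the 32 genes from 20% to under 80% it was 1.73-fold, and in the 20 genes with at least 80% it was 1.39-fold. Spearman's rho between percent unique and the size of the difference was -0.48 over 64 genes, given as a description because genes share sequence and libraries. Some fully unique H4 genes also differed: Hist1h4d and Hist2h4 are 100% unique and had 336.6 and 431.7 TPM against 170.1 and 210.9 TPM, and 113.0 and 143.7 TPM against 66.6 and 82.3 TPM. The fully unique Hist1h1a had 206.3 and 279.0 TPM against 233.0 and 297.2 TPM.

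**Figure D5:**
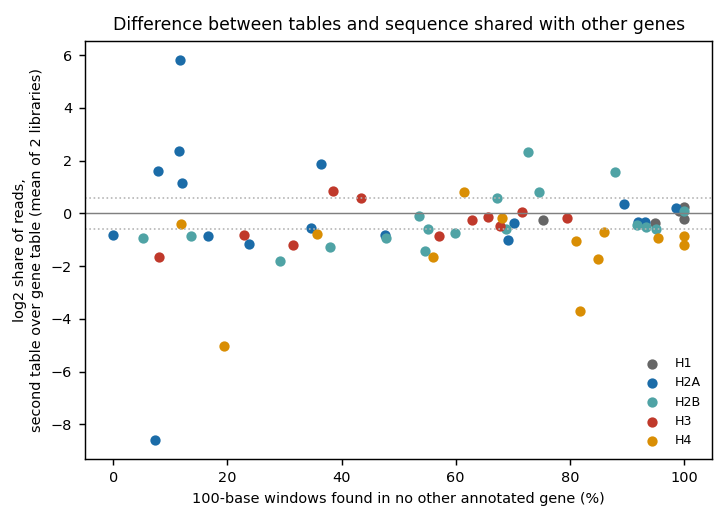
Percent of a gene's 100-base stretches found in no other annotated gene (horizontal axis) and log2 of its share of reads in the second table over the gene table, mean of 2 libraries (vertical axis), for 64 genes coloured by class. Dotted lines mark 1.5-fold. The largest differences lie under 20% unique, and H4 genes lie below the line also at 80% and more.

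Summed over a class, most of the differences between the tables fell away in TPM. After centring, the log2 of the second table over the gene table was -0.13 and -0.11 in replicates 1 and 2 for H1, 0.47 and 0.52 for H2A, -0.09 and -0.01 for H2B, 0.01 and 0.03 for H3 and -0.13 and -0.04 for H4. H2A, at 1.38 and 1.43 times after centring, stood farthest apart. In shares of reads every class was lower in the second table: H1 at 0.87 and 0.88 times the gene table's share, H2A at 0.89 and 0.89, H2B at 0.77 and 0.78, H3 at 0.85 and 0.86, and H4 at 0.59 and 0.60. H2A and H3 thus had opposite signs in these measures, which differ in the division by length and in the total that each is scaled to. As a share of the TPM of protein-coding genes, H3 was 1.071% and 1.376% in the gene table and 1.035% and 1.338% in the second, and H2A was 1.163% and 1.482% against 1.543% and 2.012%.

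Only 5 of the 67 genes have over 1 transcript in the annotation. In Hist1h2be, an H2B gene whose models overlap those of Hist1h1e on the same strand, the transcript table gave Hist1h2be-201 99.1% and 97.0% of the gene in replicates 1 and 2, while the second table gave Hist1h2be-202 94.1% and 93.7%. The gene itself had 50.2 and 62.4 TPM in the gene table and 160.5 and 177.4 TPM in the second. In Hist1h2bp, Hist1h2bq and Hist1h2br the short transcript held over 97% in both tables. Hist1h2bq-201 and Hist1h2br-202 were each given 556.2 and 640.9 TPM, identical values in each library, and the bounds of Hist1h2bq ran from 189.2 to 854.5 TPM in replicate 1. Summed, the pair had 1129 and 1300 TPM from 6390 and 7090 reads in the gene table, and 1069 and 1413 TPM from 3533 and 4360 reads in the second.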

How the data were processed

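Total RNA-seq of 2 neutrophil libraries was analysed from the deposited tables of mm10 with GENCODE M21. Per gene, the deposited gene table holds TPM, posterior mean TPM and an expected count, and its TPM bounds form a signal range, per the file headers. Per the file headers, the deposited transcript table gives percent of the gene (IsoPct), and a coefficient of quartile variation was deposited as a score and was not used. The second deposited transcript table gives estimated counts and TPM, summed here per gene; the aligner and both estimating programs are not stated in the labels or headers. The members and lists were chosen with earlier results of these data known.

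Expected counts were rounded and compared between libraries by an exact two-sided binomial test (scipy 1.17.1), for a summed count of at least 50, with 18060581 and 17609100 reads as offsets. Replicates are labelled biological but share a donor label; p-values measure counting error only. On simulated counts for 12448 tested genes, 48 of 50 genes changed 2.5-fold and 1 of 12249 unchanged genes were called. Of 50 genes changed 1.5-fold, 1 was called, as a call needs 2-fold or more. Ratios as small as those of most histone genes are thus below what a call can pick up. The real libraries differ beyond counting error (common dispersion of 0.01345 in edgeR). The simulated unchanged genes are therefore no guide to how many calls in the real libraries are wrong. Genes named were members with a mean TPM of at least 10 (or the 4 highest of a class), members called, the 5 largest table differences in each direction, members whose other transcript held at least 20%, list genes called and the 3 highest of each list. The remaining genes were named after their values were seen. TMM (edgeR), DESeq2 size factors, filters, thresholds and the second table were tried as alternatives. The list symbol Zcchc6 was read as Tut7 through RefSeq synonyms. A pseudocount of 0.01 TPM entered the table comparison.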

Additional observations from a re-analysis of the deposited data

Results flagged for a closer look

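Reads were found in 2 pseudogenes that carry histone symbols and that the choice by transcript type left out, both above the 3 reads that a count of 0 allows. Hist1h2al, annotated as a processed pseudogene, had 1193 reads in replicate 1 and 1328 in replicate 2 in the gene table (263.7 and 304.0 TPM), which would place it among the middle H2A genes, while the second table gave 1.27 and 0 reads. It shares 100-base stretches with Hist2h2aa1, Hist2h2aa2 and Hist2h2ac. Hist3h2bb-ps, which shares stretches with Hist3h2ba, had 79.1 and 145.3 reads in the gene table and 54.4 and 126.9 in the second.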

How the results depend on the processing

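No paired analysis was possible because the series has 1 group. The comparison of the libraries could not be repeated without a library, since it needs both.

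Of 132 alternative values, 111 kept their direction and stayed within their limit. The limit was 1.5-fold for counts of genes and the exact interval for class ratios between the libraries. For class levels and class ratios between the tables it was the SD of the 2 libraries. A value from a single library always lies within that SD, so those alternatives could not move and are no check. The log2 ratios of Hist3h2ba and Hist2h2aa1 likewise could not change under another count filter or fold threshold. Both kinds count among the 111, which is therefore no measure of stability. Rescaling to the total of protein-coding genes alone raised the class means by construction to 3835 (H1), 13225 (H2A), 14802 (H2B), 12232 (H3) and 13571 (H4) TPM. The second table gave H2A 9477 TPM. Adding the pseudogenes that carry histone symbols, an alternative chosen after seeing the data, gave H2A 6469 TPM and H2B 6939 TPM. Histone genes called between the libraries were 2 with every other offset or filter on low counts and with the negative binomial test. All genes called, in either direction, were 279 to 282 of 12437 with those offsets and 183 of 12437 with that test. With the filters they were 543 of 15714 and 520 of 22075. At 1.5-fold 4 of 63 histone genes were called, against 608 of all 12437 genes tested. With no fold threshold 59 of 63 were called, against 3029 of 12437. By the second table only Hist3h2ba was called among 62 histone genes, against 299 of all 14045 genes tested. There Hist2h2aa1 had a log2 ratio of 0.43. Table differences fell from 26 genes to 15 at 2-fold and were 27 and 28 from replicate 2 or replicate 1 alone. The log2 class ratios between the tables were -0.20 (H1), -0.16 (H2A), -0.37 (H2B), -0.23 (H3) and -0.75 (H4) in shares of reads, and 0.0054 (H1), 0.62 (H2A), 0.075 (H2B), 0.15 (H3) and 0.038 (H4) without centring; the cause was not tested. The histone genes held 224208 and 268475 reads in the 2 libraries, which sets the counting error of their sums.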
